A study of Mus musculus with 4 samples.

Results

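Polycomb group proteins and the trithorax enzymes that oppose them were followed through 34 listed mouse genes: the subunits of Polycomb repressive complexes 2 and 1, the demethylases that remove the Polycomb mark, and methyltransferases of the KMT2 family. A gene was included when the array held a probe set naming it alone, and the probe set of highest mean signal stood for the gene. Of the 34 genes, 33 had such a probe set, out of 19938 genes on the array that did. Cbx6 shares its 1 annotated probe set with 2 other genes and has no value here. All 33 passed the filter on low signal, and the lowest member value on any array was log2 5.12, against a filter level of log2 4.27.

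The genes were measured in 2 mouse soft tissue tumour lines, 167 and 365, which arose in p53-/- animals heterozygous for Smarcb1 and had lost Smarcb1. The protein belongs to the core of SWI/SNF, an enzyme complex that moves nucleosomes. Cells of both lines received pMIG, a retroviral vector, either empty or expressing Smarcb1. Total RNA was taken at 3 days, a time the study chose to favour early targets. The data are 4 arrays, 1 per combination of line and vector. All 4 groups were p53 null on a C57BL6/SV129J background, and the Smarcb1 groups carried the transgene in addition. The labels give no age for the mice, and each line comes from 1 mouse. The labels name no repeat culture, and do not say whether infected cells were sorted, so the share of cells carrying the virus is unknown. In such bulk RNA, fewer cells expressing a gene and less RNA per cell cannot be told apart.

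Polycomb complex 2 places methyl groups on a lysine in the tail of histone H3 through EZH1 or EZH2, which need EED and SUZ12 to work. Complex 1 attaches ubiquitin to histone H2A through RING1 or RNF2, paired with one of the PCGF proteins. Canonical forms of complex 1 read the methyl mark with a CBX protein, and variant forms carry RYBP or YAF2 in its place. The demethylases KDM6A and KDM6B erase the mark, KMT2 enzymes methylate another lysine of H3 at active genes and enhancers, and SWI/SNF is known to act against Polycomb. Loss of SMARCB1 in rhabdoid tumours has been tied to a need for EZH2.

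In line 167 the Smarcb1 probe set read log2 4.61 with empty vector and 7.83 with Smarcb1. In line 365 it read 6.01 and 9.61, and the rise of 3.41 ± 0.20 (moderated SE, n = 2 lines) passed limma's test (adjusted p = 0.0371). Array medians over all 35556 probe sets lay between log2 5.03 and 5.07. Of the markers of soft tissue cells, vimentin (Vim) was between 13.3 and 13.5 on all arrays. Pdgfrb, of the same list, read 8.95 and 9.36 in line 167 and 5.12 and 5.03 in line 365. Epcam (epithelium) and Ptprc and Itgam (leukocytes) had means below the filter level. Other genes of those lists did not, with Krt19 between 4.67 and 8.27 and Cd68 between 8.18 and 9.95. Signals of different probe sets are not on one scale, so levels are compared only between arrays for the same gene.

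Promoter sequence is shown for 4 members: Phf19 and Suz12, which carried the E2F motif searched below, and Pcgf5 and Pcgf2, which differed between the lines. Each run gives the 250 bases before the RefSeq start site in mouse build GRCm38.p6, read 5′ to 3′ on the strand of the gene, with the motif in capitals. For Pcgf5, which has several annotated starts, the one farthest upstream is given, and which start was used in these cells is unknown.
Phf19, chr2:34913977-34914226, minus strand: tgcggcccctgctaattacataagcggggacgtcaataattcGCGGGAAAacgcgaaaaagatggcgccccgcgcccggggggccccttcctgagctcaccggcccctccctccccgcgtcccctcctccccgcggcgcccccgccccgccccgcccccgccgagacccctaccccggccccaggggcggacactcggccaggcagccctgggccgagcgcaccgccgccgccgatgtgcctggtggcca
Suz12, chr11:79992856-79993105, plus strand: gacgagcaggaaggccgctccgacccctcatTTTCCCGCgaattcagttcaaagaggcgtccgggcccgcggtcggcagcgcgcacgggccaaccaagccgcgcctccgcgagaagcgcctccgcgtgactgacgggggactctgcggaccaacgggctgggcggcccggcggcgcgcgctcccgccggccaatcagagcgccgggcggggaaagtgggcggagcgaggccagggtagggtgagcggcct
Pcgf5, chr19:36348079-36348328, plus strand: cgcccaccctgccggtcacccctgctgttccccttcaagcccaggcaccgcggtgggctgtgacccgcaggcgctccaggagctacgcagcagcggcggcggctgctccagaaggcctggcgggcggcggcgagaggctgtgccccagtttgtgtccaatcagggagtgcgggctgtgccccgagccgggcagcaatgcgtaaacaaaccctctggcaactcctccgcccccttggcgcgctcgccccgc
Pcgf2, chr11:97699649-97699898, minus strand: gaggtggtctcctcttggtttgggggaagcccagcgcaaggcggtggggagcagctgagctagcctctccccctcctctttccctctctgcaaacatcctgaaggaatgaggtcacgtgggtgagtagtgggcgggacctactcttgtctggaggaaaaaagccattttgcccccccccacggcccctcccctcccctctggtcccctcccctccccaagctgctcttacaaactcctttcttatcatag

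E2F factors drive genes of the cell cycle, and Ezh2 and Eed are known as E2F targets. The letters TTTCCCGC, TTTCGCGC, TTTGCCGC and TTTGGCGC were searched on both strands of these windows. Promoters were found in RefSeq for 29 of the 34 genes, and 2 of the 29 held a match (6.9%), against 2.16% of 27025 genes. In Suz12 TTTCCCGC lay on the gene's strand and in Phf19 on the opposite strand. The windows of Ezh2 and Eed, named above as known targets, held no match. The promoter windows of the members, 40 with all starts, held a median of 22 CpG steps, against 6 over all 32851 windows. All 4 motifs contain CpG. Among the proliferation genes described further on, 4 of 15 held a match.

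**Figure D1:**
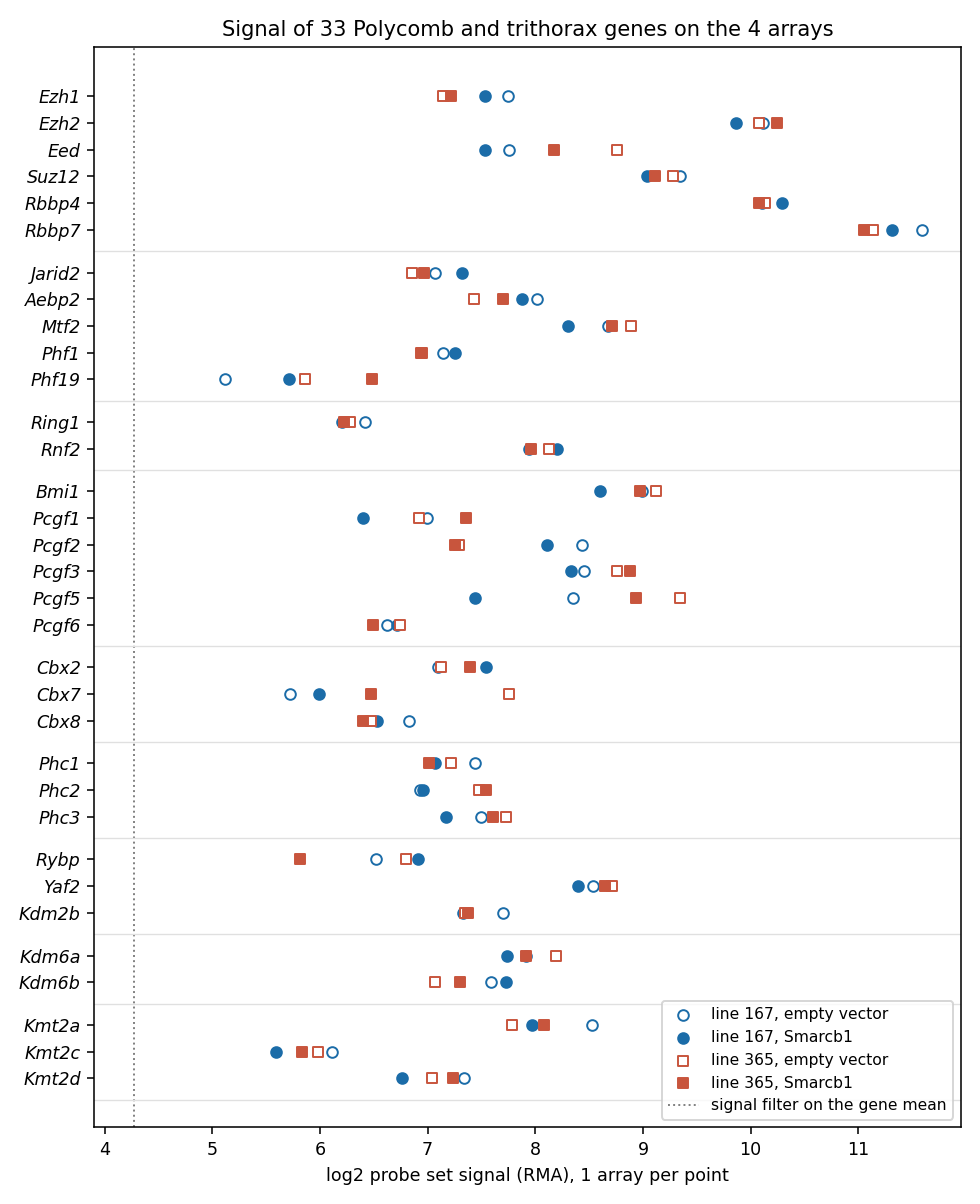
Signal (log2, RMA) of the 33 genes on the 4 arrays, grouped by role, with open symbols for empty vector, filled symbols for Smarcb1 and the filter level as a dotted line. All points lie above the filter level of log2 4.27. Line 365 (squares) lies to the right of line 167 (circles) for Pcgf5 and to the left for Pcgf2, and Cbx7 stands apart in line 365 with empty vector.

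Across the 33 genes, no difference between Smarcb1 and empty vector passed the test. With a model of cell line and vector, limma called 0 of 33 members at an adjusted p below 0.05, where 0.0645% of all 13956 tested genes were called. At an unadjusted p below 0.05 there were 2, Pcgf5 and Phf19, or 6.06% of members against 11.6% of all genes. The smallest adjusted p among members was 0.320. The 95% interval of the mean change stayed within 2-fold either way, log2 -1 to 1, for 29 of the 33 genes. The exceptions were Cbx7, Rybp, Pcgf5 and Phf19, and the outermost bounds were -1.56 for Cbx7 and 1.07 for Phf19.

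Single-line changes are given next, each from 1 array against 1 array and with no test. They are written as log2 Smarcb1 minus empty vector, in line 167 and then in line 365. The median over the members was -0.22 and -0.06, and over all tested genes -0.06 and -0.0059. Below 0 were 22 members in line 167 (66.7%, against 57.2% of all genes) and 20 in line 365 (60.6%, against 50.9%). Both lines were below 0 for 14 members (42.4%, against 34.1% of all genes) and above 0 for 5 (15.2%, against 26.0%), and 14 had opposite signs (42.4%, against 39.8%). Across the 33 members the changes of the lines had a Pearson r of -0.07, and across all tested genes, which are not independent replicates, r was 0.441. The r of the members includes Cbx7, at 0.27 and -1.28, and Rybp, at 0.39 and -0.99, which lie far from the other members. A second probe set of Rybp was at 0.59 and 0.73, so the r of -0.07 is no measure of unlike responses. Each line has its own control, so no array enters both changes.

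**Figure D2:**
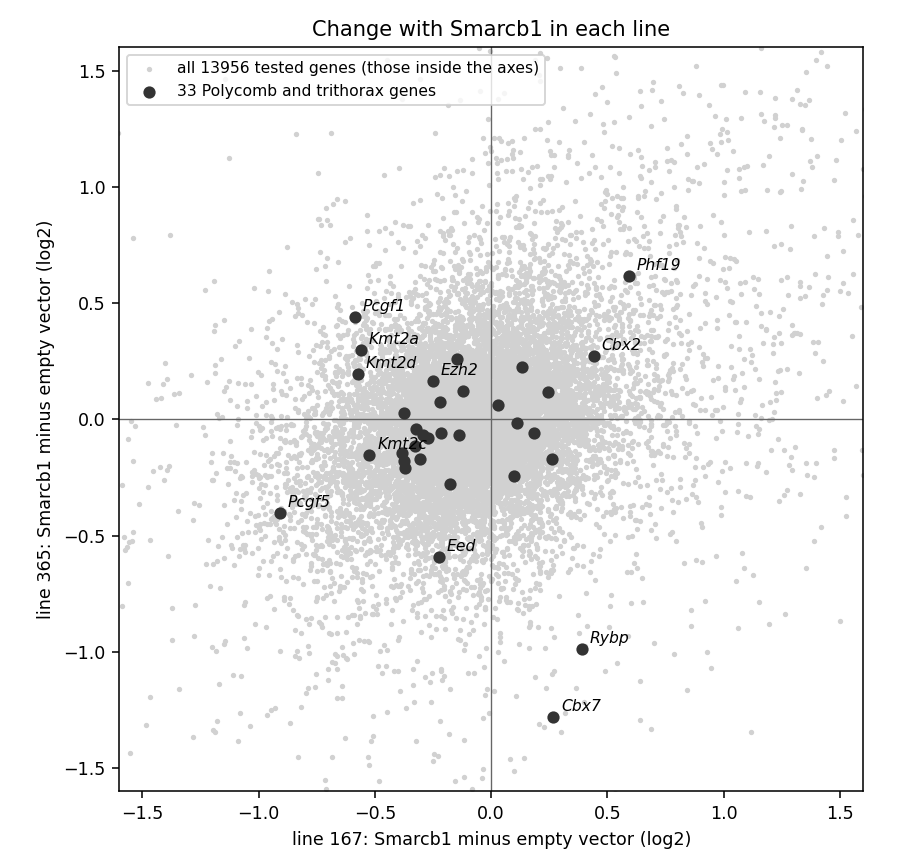
Change with Smarcb1 (log2) in line 167 (x axis) and line 365 (y axis). Black points are the 33 members and grey points all tested genes within the axes. Phf19 is the member past 1.5-fold in both lines the same way, at 0.59 and 0.62. Cbx7 and Rybp (in the probe set used) lie far down in line 365 and above 0 in line 167.

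In the core of complex 2, no gene passed the test with Smarcb1. Ezh2, the main methyltransferase of dividing cells, read log2 10.12 and 9.87 in line 167 (empty vector, then Smarcb1), and 10.08 and 10.25 in line 365. The lowest and the highest array both carried Smarcb1, so the vector groups overlap. The mean change was -0.04 ± 0.15 (moderated SE, n = 2 lines), with a 95% interval of -0.44 to 0.35. Ezh1, its counterpart in resting cells, read 7.75 and 7.53 in line 167 and 7.14 and 7.22 in line 365, both lower in line 365. Suz12, the scaffold of the complex, read 9.34 and 9.04 in line 167 and 9.28 and 9.11 in line 365. Both Smarcb1 arrays lay below both empty-vector arrays. Its mean change was -0.24 ± 0.14 (limma adjusted p = 0.569).

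Eed, the subunit that binds the finished mark, read 7.76 and 7.53 in line 167 and 8.76 and 8.17 in line 365. Its change was -0.22 and -0.59 (mean -0.41 ± 0.18, limma adjusted p = 0.486). The lines did not overlap for Eed, whereas the vectors did. The histone-binding subunits Rbbp4 (0.18 and -0.06) and Rbbp7 (-0.27 and -0.08) were within 1.5-fold of the control in each line. Over the 11 members of complex 2, 0 passed and the medians were -0.22 and -0.02.

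Among the accessory subunits, which decide where complex 2 settles, Phf19 had the largest difference above 0 in both lines of all 33 members. PHF19, MTF2 and PHF1 are Polycomb-like proteins that bind CpG-rich DNA and histone tails. Phf19 read log2 5.12 and 5.71 in line 167, then 5.86 and 6.48 in line 365. Each Smarcb1 array was above its own control by nearly the same amount, 0.59 and 0.62, while the vector groups overlap because line 365 starts higher. The mean change was 0.60 ± 0.18 or 1.52-fold (limma adjusted p = 0.337). It was the 1 member at least 1.5-fold higher in both lines (3.03% of members, against 2.79% of all genes). After quantile normalization the count was 0, with a mean change of 0.57.

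Mtf2 lay on the other side of 0, at 8.68 and 8.31 in line 167 and 8.89 and 8.71 in line 365. The changes were -0.37 and -0.18 (mean -0.28 ± 0.15, limma adjusted p = 0.557). Phf1 (0.11 and -0.02), Jarid2 (0.25 and 0.12), which guides the complex to its sites, and Aebp2 (-0.15 and 0.26) were within 1.5-fold of the control. Of the 2 members with an E2F match in the window shown, Phf19 was above 0 and Suz12 below 0 in both lines. Neither change passed the test, and a part of E2F in them was not tested.

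Complex 1 showed 0 of 17 measured members past the test, with medians of -0.22 and -0.07. Its ligase genes Ring1 (-0.22 and -0.06) and Rnf2 (0.26 and -0.17) were within 1.5-fold of the control. Of the PCGF genes, which set the type of complex 1, Pcgf5 had the largest difference below 0 in both lines. Pcgf5, a partner in variant complexes, read 8.35 and 7.44 in line 167 and 9.34 and 8.94 in line 365. Both Smarcb1 arrays were below their own controls, by log2 -0.91 and -0.40, and the vector groups overlap. The mean change was -0.66 ± 0.19 (limma adjusted p = 0.320). No member was at least 1.5-fold lower in both lines (0 of 33, against 1.35% of all genes).

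Pcgf1, the PCGF protein of the complex that binds CpG islands through KDM2B, had differences of opposite sign in the lines. It read 6.99 and 6.40 in line 167 and 6.92 and 7.36 in line 365, so the lines were close with empty vector and apart by log2 0.96 with Smarcb1. Kdm2b was at -0.38 and 0.03. Bmi1, the PCGF protein first known as a partner of Myc in lymphoma, was at -0.38 and -0.15, and both its Smarcb1 arrays lay below both empty-vector arrays. Pcgf2 (-0.32 and -0.04), Pcgf3 (-0.12 and 0.12) and Pcgf6 (0.10 and -0.24) were within 1.5-fold of the control.

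Canonical subunits of complex 1 were split. Cbx2, a CBX protein that compacts chromatin, read 7.10 and 7.54 in line 167 and 7.12 and 7.40 in line 365, so both Smarcb1 arrays were above both empty-vector arrays. It was the 1 member with that pattern (3.03%, against 13.6% of all genes), and its mean change was 0.36 ± 0.18 (limma adjusted p = 0.534). Cbx8, its direct neighbour among the protein-coding genes of the RefSeq table, was at -0.29 and -0.07. The reverse pattern, both Smarcb1 arrays lowest, was seen for 5 members (15.2%, against 15.5% of all genes): Bmi1, Kmt2c, Phc1, Ring1 and Suz12.

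Cbx7, a CBX protein known for repressing the Cdkn2a locus, had the widest single-line change. It read 5.72 and 5.99 in line 167 and 7.75 and 6.47 in line 365. The line 365 control was the highest of the 4 arrays, and with Smarcb1 the lines were log2 0.48 apart where they had been 2.03 apart. The changes were 0.27 and -1.28, and the mean of -0.51 ± 0.40 did not pass (limma adjusted p = 0.673). Cdkn2a itself read 10.26 and 10.13 in line 167 and 9.73 and 9.81 in line 365.

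The polyhomeotic genes, whose proteins polymerise canonical complex 1, were within 1.5-fold of the control in the probe sets used. Phc1 read 7.44 and 7.07 in line 167 and 7.22 and 7.01 in line 365, lower with Smarcb1 in each line (mean -0.29 ± 0.18, limma adjusted p = 0.595). Phc3 was at -0.33 and -0.12 and Phc2 at 0.03 and 0.06. Yaf2, of the variant complexes, was at -0.14 and -0.07.

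Rybp, the relative of Yaf2, gave a value that depended on the probe set. The probe set of highest mean read 6.52 and 6.91 in line 167 and 6.80 and 5.81 in line 365, a change of 0.39 and -0.99. The second probe set, annotated with the same transcripts, read 6.23 and 6.81 in line 167 and 5.81 and 6.54 in line 365, a change of 0.59 and 0.73. Both show more signal with Smarcb1 in line 167, and they have opposite signs in line 365. Averaging them turned the fitted mean change from -0.30 to 0.18. Which part of the transcript, or which copy in the genome, each one detects was not analysed here, so the direction for Rybp is uncertain.

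**Figure D3:**
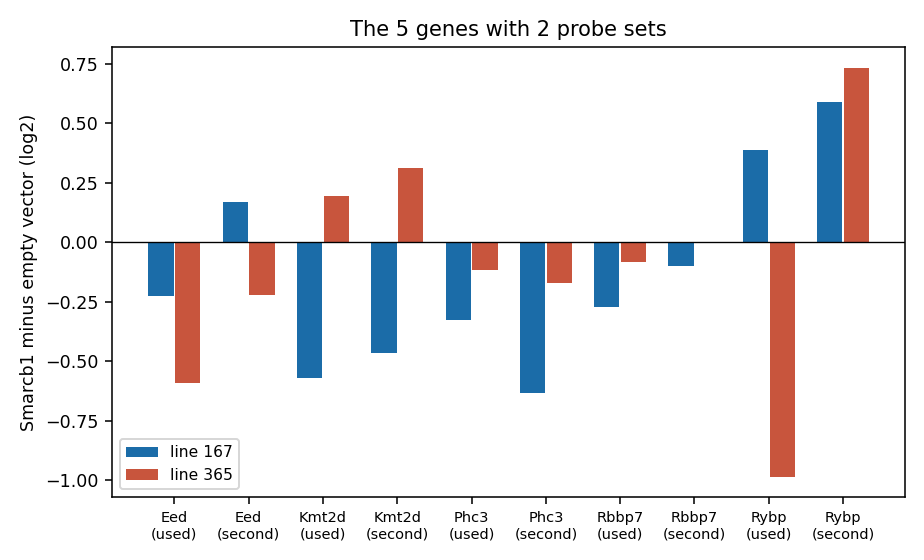
Change with Smarcb1 (log2) for the 5 members with 2 probe sets, as bars from 0, blue for line 167 and red for line 365, with the probe set used first. Rybp is at 0.39 and -0.99 in the one used and at 0.59 and 0.73 in the second. Kmt2d and Phc3 keep the same sign in each line in both probe sets.

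In the other 4 genes with a pair of probe sets, the second kept the sign of the first in both lines except for Eed in line 167, at 0.17. Kmt2d was at -0.57 and 0.20 in one and -0.47 and 0.31 in the second, and Phc3 at -0.33 and -0.12, then -0.63 (past 1.5-fold) and -0.17. Rbbp7 was at -0.10 and -0.0013 in its second probe set. The second probe set of Eed had a mean of log2 3.73, below the filter level, so it is no check on the first.

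On the trithorax side, the changes in line 167 were below 0 for 4 of 5 genes (80.0%, against 57.2% of all genes). In line 365 they were below 0 for 2 of 5 (40.0%, against 50.9%). The medians were -0.52 in line 167 and 0.20 in line 365. The 3 KMT2 members were alike in line 167: Kmt2a was at -0.56, Kmt2c at -0.52 and Kmt2d at -0.57. In line 365 they were at 0.30, -0.15 and 0.20. The family as a whole was not alike, as Kmt2b and Kmt2e, outside the members, were at -0.31 and 0.26 in line 167. In line 365 Kmt2b was at 0.11 and Kmt2e at 0.40. Kmt2a, the gene rearranged in infant leukaemia, read 8.53 and 7.97 in line 167 and 7.79 and 8.08 in line 365, so the line 167 control was the highest array. None of the 3 passed, with limma adjusted p of 0.872 for Kmt2a, 0.577 for Kmt2c and 0.809 for Kmt2d.

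The demethylase genes had small changes, of opposite sign to each other. Kdm6a read 7.91 and 7.73 in line 167 and 8.19 and 7.91 in line 365 (mean -0.23 ± 0.16, limma adjusted p = 0.637). Kdm6b, the form induced by stress and inflammation, read 7.59 and 7.73 in line 167 and 7.07 and 7.30 in line 365 (mean 0.18 ± 0.18, adjusted p = 0.733). For each gene the 2 lines had the same sign, and the vector groups overlap.

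By line, 3 members were at least 1.5-fold from the control in line 167, Phf19 higher and Pcgf1 and Pcgf5 lower. Higher were 3.03% of members, against 6.93% of all genes, and lower 6.06%, against 7.80%. In line 365 Phf19 was higher (3.03%, against 6.49%) and Cbx7, Eed and Rybp lower (9.09%, against 4.75%). The second probe set of Rybp was at 0.73 in line 365, so its place among the lower members is uncertain. Of 16 tested proliferation genes that E2F factors control, 15 were below 0 in line 167 (93.8%, against 57.2% of all genes) and 10 in line 365 (62.5%, against 50.9%), with medians of -0.31 and -0.07. Among them Mcm5 was at -0.44 and -0.39, Mcm3 at -0.32 and -0.34 and Pcna at -0.39 and -0.21. Where 11.6% of all tested genes had an unadjusted limma p below 0.05, 3 of the 16 did, and 0 of the 16 passed limma's test. Their part in the values of the members was not tested.

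With Smarcb1, 0 of the markers of cell type passed limma's test, and their values are given without a direction being called. Of the mesenchymal markers, 7 of 8 were above 0 in line 167 and 5 of 8 in line 365. Of all tested genes, 57.2% were below 0 in line 167 and 50.9% in line 365. Col1a1 and Col1a2, collagens of connective tissue, were at 2.65 and 0.03, and at 1.74 and 0.0017. Both count as above 0 in line 365, where they barely differ from 0. The keratin Krt19 was at 1.85 and 2.68 (limma adjusted p = 0.0891) and the neuronal tubulin Tubb3 at 1.74 and 2.35 (adjusted p = 0.0865). Nefl, a neurofilament, was at -3.42 and -0.83. Of the other epithelial markers, Cdh1 was at 0.06 and 0.08, Krt8 at 0.41 and 0.15 and Krt18 at 0.12 and -0.39. Epcam, below the filter level, was at -0.19 and -0.31. Summed signal of the tested epithelial markers was log2 7.14 and 7.83 in line 167, then 7.51 and 8.78 in line 365. That of the neural markers was 10.74 and 8.33, then 8.21 and 8.30, and of the leukocyte markers, mostly Cd68, 9.44 and 8.88, then 10.04 and 8.49. A sum is set mostly by the brightest probe set of its list and does not measure the cell type. Such probe sets are Vim, Cd68, Nefl in line 167 with empty vector, and Krt19 in line 365 with Smarcb1. Skeletal muscle markers summed to between 5.58 and 5.88, with Myog and Myh3 below the filter level. Their part in the values of the members was not tested.

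The tumour lines differed in 2 members, both PCGF genes. Using all 4 arrays, limma called Pcgf5 higher and Pcgf2 lower in line 365, 6.06% of members against 10.9% of all tested genes. Higher in line 365 were 3.03% of members against 5.31% of all genes, and lower were 3.03% against 5.64%. Each line comes from 1 mouse, and the 2 arrays of a line share its cells, so this compares these lines and not kinds of tumour.

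Pcgf5 was 2.37-fold higher in line 365, by log2 1.25 ± 0.19 (moderated SE, limma adjusted p = 0.0266). The difference was 0.99 with empty vector and 1.502 with Smarcb1, and both arrays of line 365 were above both of line 167. Pcgf2, whose protein MEL18 sits in canonical complex 1 in place of BMI1, read 8.44 and 8.11 in line 167 and 7.30 and 7.25 in line 365. It was 2.00-fold lower in line 365, by log2 -1.0 ± 0.18 (adjusted p = 0.0375), at -1.14 with empty vector and -0.86 with Smarcb1. Bmi1 itself differed by 0.25 ± 0.15 (adjusted p = 0.336).

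**Figure D4:**
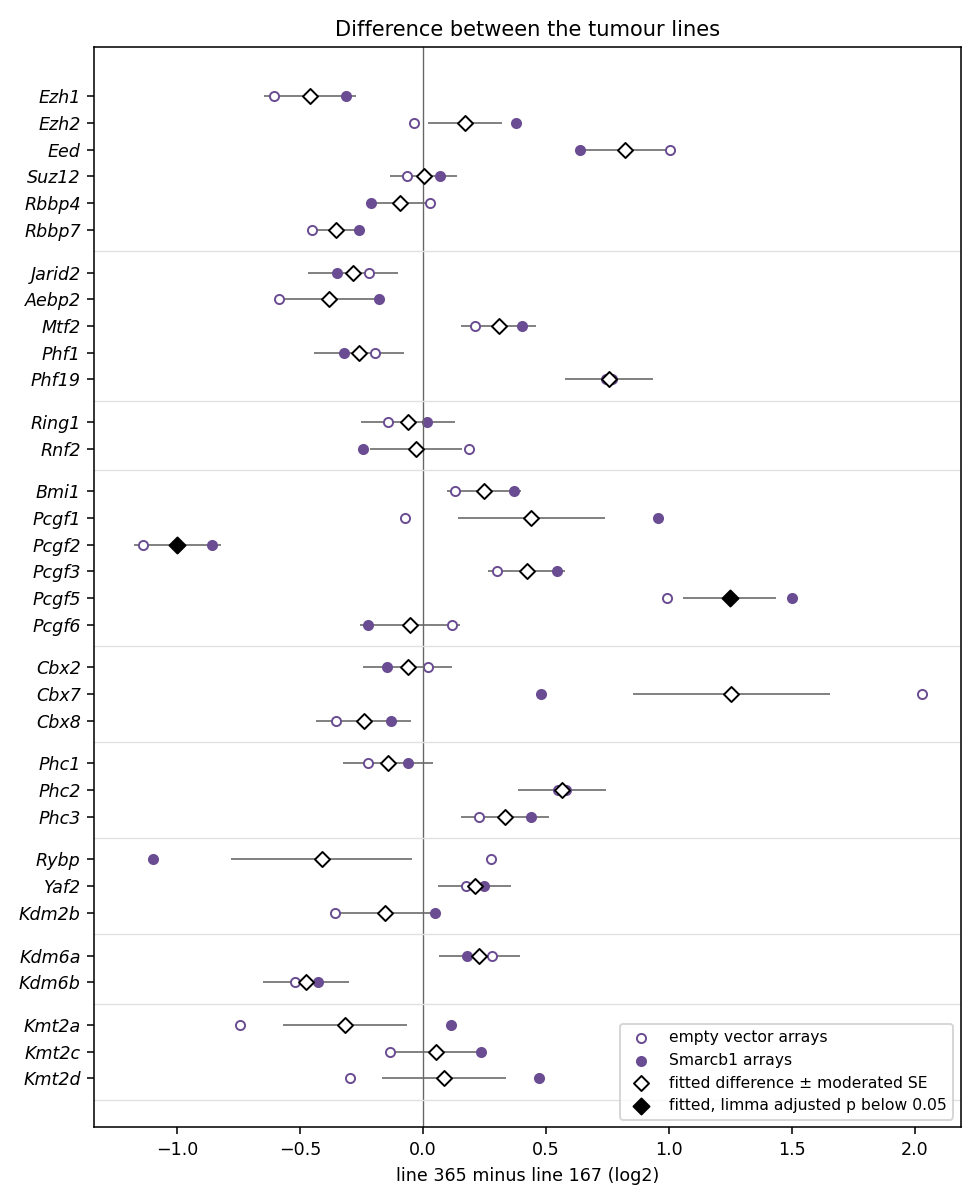
Line 365 minus line 167 (log2) for the 33 members, as circles for each vector and diamonds with bars for the fitted difference ± moderated SE. Filled diamonds mark Pcgf5 at 1.25 and Pcgf2 at -1.0, the 2 members past limma's test. Cbx7 has the widest gap between its circles, 2.03 with empty vector and 0.48 with Smarcb1.

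Other members differed without passing. Eed was at 0.82 ± 0.18 (limma adjusted p = 0.0558). Its limma adjusted p was 0.0346 with a filter at the 50th percentile and 0.224 with the mean over probe sets. Phf19 was at 0.76 ± 0.18 (adjusted p = 0.0660). Eed and Phf19 were both higher in line 365 with either vector. Cbx7 had a larger mean difference, 1.26 ± 0.40, and did not pass (adjusted p = 0.117). Phc2 read 6.93 and 6.95 in line 167 and 7.47 and 7.54 in line 365, a difference of 0.57 ± 0.18 (adjusted p = 0.114).

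Lower in line 365 without passing were Kdm6b, at -0.48 ± 0.18 (limma adjusted p = 0.152), and Ezh1, at -0.46 ± 0.19 (adjusted p = 0.181). Ezh2 differed by 0.17 ± 0.15 and Suz12 by 0.0029 ± 0.14. In 10 members both arrays of line 365 lay above both of line 167 (30.3%, against 26.7% of all genes), and in 8 they lay below (24.2%, against 29.1%). At least 1.5-fold apart were 8 members with empty vector (24.2%, against 28.7%) and 6 with Smarcb1 (18.2%, against 22.8%). Aebp2, Ezh1, Cbx7 and Kmt2a were among the first and not the second, and Pcgf1 and Rybp among the second and not the first. The second probe set of Rybp differed by -0.27 with Smarcb1.

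Markers of cell type differed between the lines. Of 8 mesenchymal markers, 8 were tested and 4 were lower in line 365 by limma (Col1a2, Pdgfrb, Prrx1 and Twist1), or 50.0% against 5.64% of all tested genes. The summed signal of the 8 was log2 14.02 and 14.13 in line 167, then 13.44 and 13.52 in line 365. Cdh5, the cadherin of endothelium, read 3.78 and 3.64 in line 167 and 9.06 and 8.29 in line 365, while Pecam1 and Tek had means below the filter level. Cdh5 lay below the filter level in line 167 and was tested only through line 365, so its call (limma adjusted p = 0.00296) is no measure of size. Krt19 was higher in line 365 by 1.33 ± 0.27 (limma adjusted p = 0.0471). The epithelial markers Cdh1, Krt8 and Krt18 differed by 0.14, 0.10 and -0.006 and did not pass. Of the 16 proliferation genes 1 passed (6.25%, against 10.9% of all tested genes), Rrm2, which makes DNA precursors, higher by 1.41 ± 0.18 (adjusted p = 0.0174). Their part in the differences of Pcgf5 and Pcgf2 was not tested.

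Genes known as Polycomb targets in development, which the complexes keep silent in many tissues, were described beside the members. Of 32 listed, 31 had a probe set and 26 were tested. With Smarcb1, 11.6% of all tested genes and 3 of the 26 had an unadjusted limma p below 0.05. Limma called 0 of the 26. The medians were 0.12 in line 167 and 0.17 in line 365, and 16 were above 0 in both lines (61.5%, against 26.0% of all genes). The median signal of the 26 was log2 5.49, against 7.06 over all tested genes. Wnt5a, a signalling ligand, had the smallest p. It read 6.48 and 7.29 in line 167 and 5.05 and 6.23 in line 365 (mean 1.0 ± 0.20, limma adjusted p = 0.209). Neurog1 was at 0.42 and 0.37 and Foxd3 at 0.52 and 0.32, both at signals near the filter level. Neurog1 read 4.51 and 4.92 in line 167 and 4.43 and 4.80 in line 365. Foxd3 read 4.42 and 4.94 in line 167 and 4.72 and 5.04 in line 365. Whether either gene was expressed in these cells was not tested.

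Between the lines, 8 of these 26 genes passed limma's test (30.8%, against 10.9% of all tested genes), 5 higher and 3 lower in line 365. Pax6, a regulator of eye and brain, read 3.96 and 4.09 in line 167, below the filter level, and 6.70 and 7.10 in line 365, a fitted difference of 2.88 ± 0.18 (adjusted p = 0.00431). It was tested only because line 365 is high, and the size of its difference is uncertain. The other 7 genes were above the filter level on all arrays. Pax3, of neural crest and muscle, differed by 2.29 ± 0.21 and the cardiac factor Gata4 by 1.80 ± 0.19. Lhx2 and Tal1, the blood and endothelial factor, were the other two higher genes. Lower in line 365 were Cdkn2b, which encodes an inhibitor of cyclin-dependent kinases (-1.27 ± 0.21), Wnt5a (-1.24 ± 0.20) and Tbx3 (-1.02 ± 0.18). The list was written with earlier results of these data known, so its share is a description.

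**Figure D5:**
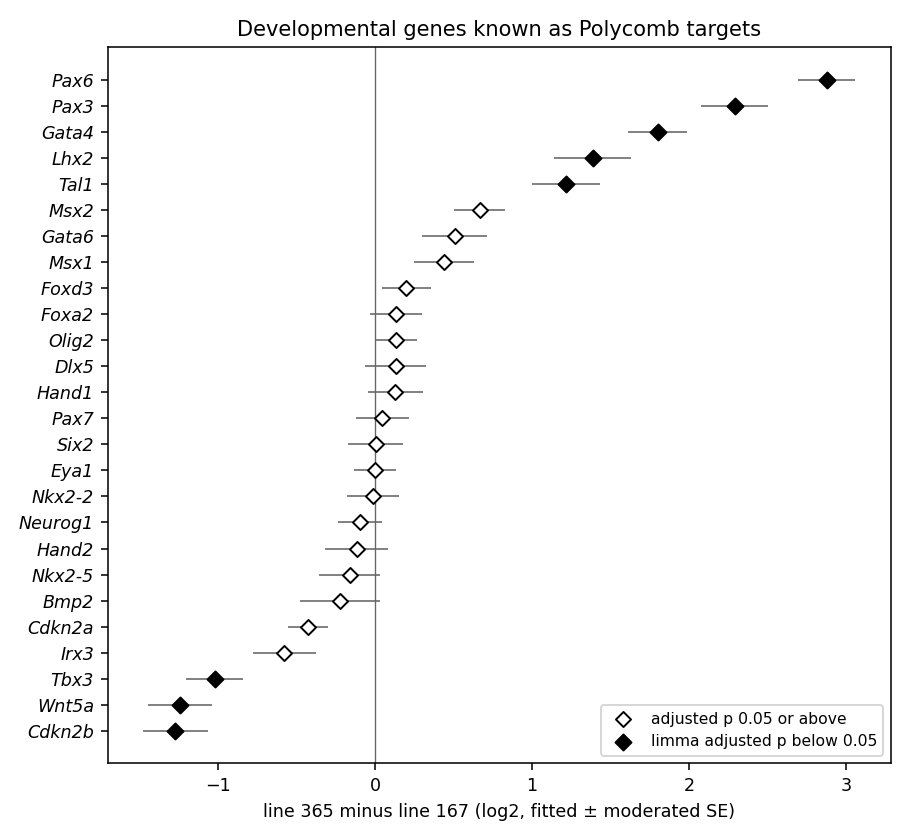
Line 365 minus line 167 (log2, fitted ± moderated SE) for the 26 tested developmental genes, ordered by size. Filled diamonds mark the 8 past limma's test, from Pax6 at 2.88, whose line 167 arrays lie below the filter level, to Cdkn2b at -1.27.

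The remaining partners of the complexes gave few calls. With Smarcb1, limma called 0 of 6 further partners of complex 2 and 0 of 22 of complex 1. It called 0 of 12 genes of the deubiquitinases that remove the mark of complex 1 and their partners. Of the KMT2 and SET1 complexes it called 0 of 15. At an unadjusted p below 0.05 there was 1 among them, against 11.6% of all tested genes. It was Scml2, at -0.76 and -0.32 (limma adjusted p = 0.393). Asxl2, a partner of the deubiquitinase BAP1, was at -0.53 and -0.36 (adjusted p = 0.455), and its co-subunits Hcfc1 and Ogt at -0.49 and -0.24, and 0.39 and 0.27. Between the lines 1 of these genes passed, E2f6, the repressor that brings variant complex 1 to DNA, at 0.97 ± 0.16 (adjusted p = 0.0296). That is 4.55% of the 22 partners of complex 1 and 0 of the other lists, against 10.9% of all tested genes. L3mbtl2 and Max, of the same variant complex, were at 0.98 ± 0.23 (adjusted p = 0.0645) and 0.54 ± 0.13 (adjusted p = 0.0681). Other genes of that complex did not follow, with Mga at -0.38, Tfdp1 at -0.0048, Wdr5 at 0.20 and the member Pcgf6 at -0.05.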

How the data were processed

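RNA of 2 cell lines with either vector was measured on 4 whole-transcript arrays. The authors deposited log2 signals, 1 per probe set. The submitters' processing notes name RMA and Affymetrix Expression Console and no version. RMA quantile-normalizes the arrays, so a change in total RNA per cell cannot be seen. Gene names came from the platform annotation, which gives 1 symbol to 21789 of 35556 probe sets. For each gene the probe set of highest mean was used, and 13956 genes at or above the 30th percentile of mean signal (log2 4.27) were tested.

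Vector and cell line were terms of a linear model (R 4.3.3; limma 3.58.1, lmFit and eBayes with an intensity trend). Tests were two-sided and adjusted by Benjamini-Hochberg over all tested genes, with a threshold of 0.05. The residual has 1 degree of freedom, that is, how far the lines responded unlike each other, and eBayes added 3.75. Standard errors and 95% intervals are moderated across genes. The block is the cell line, shared by the arrays of a pair, whose deviations from the vector means correlated at 0.770. P-values rest on the residual between the lines and on variance shared across genes. They measure no spread between repeat cultures, and the number of arrays limits the precision. Single-line values have no test. Alternatives were other filters and normalizations, no trend, the mean over probe sets, no block, and each line alone.

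The members and all lists were chosen with earlier results of these data known. Of 151 entries in the other lists and markers, 142 matched a gene. Values on every array are given for members past a test, the 8 with the largest line term, the 8 with the largest shared change, and the 4 with the widest gap between opposite changes. From other lists, genes past a test and up to 3 of smallest p are named. The array values of Ezh2 and Cdkn2a and the marker genes were added after their values were seen.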

Additional observations from a re-analysis of the deposited data

Results flagged for a closer look

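In 14 members the change with Smarcb1 had opposite signs in the lines, each from 1 array against 1 array, and the difference between the lines was not tested. Given as the change in line 365 minus that in line 167 (log2), it was -1.55 for Cbx7, -1.38 for Rybp, 1.03 for Pcgf1, 0.86 for Kmt2a and 0.77 for Kmt2d. It was -0.43 for Rnf2, 0.41 for Ezh2, 0.41 for Aebp2, 0.40 for Kdm2b, -0.34 for Pcgf6, 0.29 for Ezh1, -0.24 for Rbbp4, 0.24 for Pcgf3, -0.13 for Phf1. Opposite signs occurred in 42.4% of members and in 39.8% of all tested genes. For Rybp the second probe set had the same sign in both lines, at 0.59 and 0.73, and for Kmt2d the second probe set kept the opposite signs, at -0.47 and 0.31.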

How the results depend on the processing

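Members past the vector test numbered 0 in all 7 alternatives, and Pcgf5 and Pcgf2 passed the line test in all 6 (filters, normalizations, no intensity trend, mean over probe sets). The adjusted p ranged from 0.0130 to 0.0380 for Pcgf5 and from 0.0203 to 0.0411 for Pcgf2. The stricter filter, at the 50th percentile, added Eed to the line calls, 3 in all. With the mean over probe sets the line difference of Eed was 0.44 (limma adjusted p = 0.224). The count of all genes past the vector test moved from 9 to 0 with no replicate block (cell line left out of the model, so arrays were not paired), 68 when no gene was filtered, 101 under the stricter filter, 48 by quantile normalization and 49 by cyclic loess. The cause was not tested. Members at least 1.5-fold higher in both lines numbered 0 after quantile normalization. Leaving out line 167 or line 365 gave a median change of the members of -0.06 or -0.22, with no test possible on 1 line. The mean over probe sets turned Rybp from -0.30 to 0.18. With 1 array per line and vector, a gene's change in a single line cannot be set against any spread.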

Other observations

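Of 9 further chromatin enzymes tested, 3 differed between the lines, where 10.9% of all tested genes did. The 9 were 4 demethylases of the lysine that KMT2 enzymes methylate and 5 other methyltransferases of histone H3. The lists of 6, 22, 12 and 15 further partners given above, which also hold chromatin enzymes, gave 1 call between the lines, E2f6. The genes come from short hand-written lists, so the count is a description and no trait of chromatin enzymes at large. Dot1l, the methyltransferase of the core of histone H3 known from leukaemias with KMT2A fusions, read log2 6.54 and 6.83 in line 167 (empty vector, then Smarcb1) and 8.33 and 7.78 in line 365. It was higher in line 365 by 1.37 ± 0.26 (moderated SE, limma adjusted p = 0.0416). Nsd2, which methylates another lysine of H3 and limits the spread of the Polycomb mark, was higher by 0.79 ± 0.15 (adjusted p = 0.0446). Kdm5b, a demethylase that undoes the work of KMT2 enzymes, read 8.92 and 8.83 in line 167 and 7.38 and 8.01 in line 365, lower in line 365 by log2 -1.18 ± 0.23 (adjusted p = 0.0424). With Smarcb1, limma called 0 of these 9 genes.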
